A study of Mus musculus with 2 samples.

Results

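The 10 immediate early genes described here are Fos, Fosb, Jun, Junb, Jund, Egr1, Ier2, Ier3, Dusp1 and Myc. They were chosen by name, and every probe set annotated to one of them by symbol or gene ID was taken. This gave 12 probe sets of the 45101 on the array, and 10 of the 18193 genes that the annotation names. Each of the 12 was annotated to 1 gene only, Jun and Jund having 2 probe sets each.

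Hepatic RNA was compared between L-Lpcat3 KO mice, which carry 2 floxed Lpcat3 alleles and an albumin-Cre transgene, and Flox/Flox mice, which carry the same alleles without Cre. Lpcat3 encodes an enzyme that places polyunsaturated acyl chains into phospholipids. Both groups were 12-week-old male mice on a C57BL/6 background, fed chow and fasted for 6 hr before the livers were taken. Since albumin-Cre acts in hepatocytes, the other cells of an L-Lpcat3 KO liver still carry an intact gene. RNA of 5 mice was pooled per genotype and each pool was read on 1 Affymetrix whole-genome mouse expression array, so there was no replicate, no test and no p-value, and each ratio compares these 2 pools only. Signals are MAS5 intensities on a linear scale, and the trimmed mean of either array was 500.0. The Lpcat3 signal was 1305 in L-Lpcat3 KO, against 3310 in Flox/Flox, 2.54-fold lower in L-Lpcat3 KO. Where its 1 probe set lies relative to the deleted exon was not determined, which makes it a limited check of the deletion.

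Immediate early genes are transcribed within minutes of a stimulus from factors already present in the cell, with no need for new protein. Growth factor, stress and hormone signals reach them through MAP kinases and through serum response factor and CREB, and their transcripts are short-lived. In liver they are known to be induced by partial hepatectomy, by isolation of hepatocytes and by ischemia, and so can also be switched on while a tissue is being removed. Their products are mostly transcription factors. Fos and Jun proteins pair to form AP-1, Egr1 is a zinc finger factor and Myc pairs with Max, whereas Dusp1 is a phosphatase that switches MAP kinases off.

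The promoters of 7 of the 10 genes (Dusp1, Fos, Fosb, Ier3, Jun, Junb and Jund) were held in the RefSeq table for GRCm38.p6, and the 250 bases before each start were searched on both strands for elements that CREB and ATF proteins are known to bind. TGACG, the core of the element, was present in 4 of the 7 windows (Dusp1, Fos, Fosb and Junb) and in 17.8% of all 32851 windows of that length. TGACNTCA, a longer form in which N is any base, was present in Dusp1 (as TGACGTCA) and Jun (as TGACATCA), and in 7.49% of all windows. The 200 bases before the start are shown 5′ to 3′ for the genes with the highest and the lowest ratio of L-Lpcat3 KO to Flox/Flox, Dusp1 and Fos, and for Jun, which holds the longer form without the TGACG core. Capitals mark TGACG and TGACNTCA, which overlap at the second site of Dusp1. The windows are chr17:26508473-26508672 on the minus strand for Dusp1, chr12:85473690-85473889 on the plus strand for Fos and chr4:95052223-95052422 on the minus strand for Jun.
Dusp1: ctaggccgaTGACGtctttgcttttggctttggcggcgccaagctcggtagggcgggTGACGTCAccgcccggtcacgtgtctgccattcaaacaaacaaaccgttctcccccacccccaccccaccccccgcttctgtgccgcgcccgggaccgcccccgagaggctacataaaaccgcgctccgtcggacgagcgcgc
Fos: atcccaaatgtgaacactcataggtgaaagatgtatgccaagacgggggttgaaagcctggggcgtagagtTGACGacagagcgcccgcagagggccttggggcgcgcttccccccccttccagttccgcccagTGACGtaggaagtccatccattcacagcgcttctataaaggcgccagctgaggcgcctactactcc
Jun: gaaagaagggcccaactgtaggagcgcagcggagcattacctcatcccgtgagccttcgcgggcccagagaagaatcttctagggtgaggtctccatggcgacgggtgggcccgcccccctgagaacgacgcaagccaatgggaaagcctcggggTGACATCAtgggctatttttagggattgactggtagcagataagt
The TGACG matches began 191 and 143 bases before the start of Dusp1 and 129 and 66 bases before that of Fos. The match in Jun began 45 bases before the start. TATAA, the core of the TATA box, was found in Fos and Ier3, and in 22.8% of all windows. The CArG box, which serum response factor binds, was found in none of the 7 windows and in 1.47% of all windows, which says only that the letters are not in this stretch. A match is a description of the sequence and does not show a bound site. Dusp1 and Fos both hold the TGACG core, and they lay at opposite ends of the range of ratios described next. Whether the element has a part in these ratios was not tested.

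The immediate early genes did not move together between the pools. Dusp1 and Myc were higher in L-Lpcat3 KO, Fos was lower, and Jund, Egr1 and Junb had nearly equal signals in both pools. To compare genes, any signal under the array-wide median (76.4) was set to that value, called the floor here, and a gene counted as measured where its brightest probe set exceeded the floor in at least 1 pool. A ratio of 1.5-fold or more was counted. By this rule 9 of the 10 genes were measured, 8 with both pools above the floor. Of the 9, 2 were at least 1.5-fold higher in L-Lpcat3 KO (22.2%) and 1 was lower by as much (11.1%), while 4.01% of the 12059 measured genes were higher and 3.14% lower by as much. The other 6 lay within 1.5-fold, as did 92.9% of all measured genes, and none reached 2-fold. The median log2 ratio of the 9 was -0.03, with a range of -0.61 to 0.76, and the median over all measured genes was 0.00. In whole liver, fewer cells that express a gene and less RNA of it per cell cannot be told apart.

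**Figure D1:**
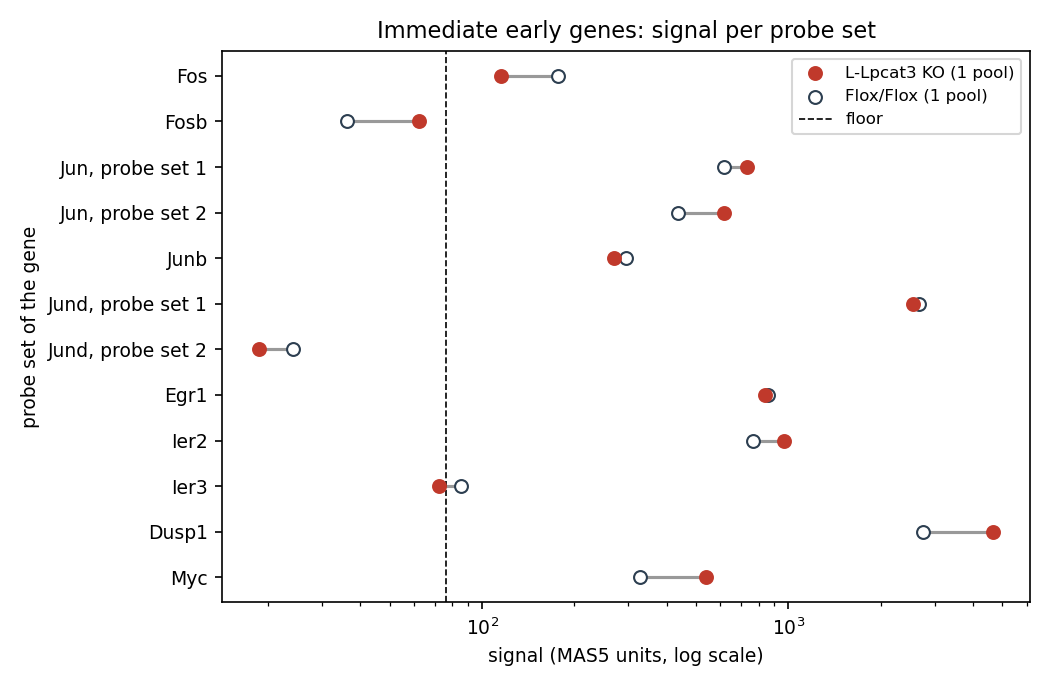
Signal of each of the 12 probe sets of the immediate early genes in the L-Lpcat3 KO pool (filled) and the Flox/Flox pool (open), in MAS5 units on a log axis; each point is 1 array, and the dashed line is the floor at 76.4. The widest gap among bright probe sets is that of Dusp1 (4658 in L-Lpcat3 KO, 2746 in Flox/Flox), and Fosb and the second probe set of Jund lie below the floor in both pools.

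Among the Fos genes, Fos, the partner that makes AP-1 strongly inducible, had a signal of 115 in L-Lpcat3 KO, against 177 in Flox/Flox. It was thus 1.53-fold lower in L-Lpcat3 KO (log2 ratio -0.61), just past the size counted here, at signals little above the floor. Fosb, a close relative that is barely transcribed in resting tissue, had signals of 62.3 in L-Lpcat3 KO and 36.1 in Flox/Flox. Both are below the floor, so Fosb was not measured and no ratio is given for it at this setting.

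The Jun genes encode the partners of Fos in AP-1. The brighter probe set of Jun, the founding member of the family, read 733 in L-Lpcat3 KO and 615 in Flox/Flox (log2 ratio 0.25). The second read 614 in L-Lpcat3 KO and 436 in Flox/Flox (log2 ratio 0.49). Both were higher in L-Lpcat3 KO and neither reached 1.5-fold, and their ratios differed by 0.24 although they read the same gene. Junb, which can hold Jun activity in check, read 269.6 in L-Lpcat3 KO and 295 in Flox/Flox (log2 ratio -0.13). Jund, the family member with the most constant expression, read 2558 in L-Lpcat3 KO and 2668 in Flox/Flox, a log2 ratio of -0.06. Its second probe set was below the floor in both pools (18.7 in L-Lpcat3 KO and 24.0 in Flox/Flox), so Jund rests on 1 probe set.

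Egr1, a zinc finger factor induced by growth factors and by mechanical or ischemic stress, had almost the same signal in both pools, 841 in L-Lpcat3 KO and 857 in Flox/Flox (log2 ratio -0.03). Ier2, a small nuclear protein of the early response, had signals of 970.5 in L-Lpcat3 KO and 768 in Flox/Flox, 1.26-fold higher in L-Lpcat3 KO. Ier3, an early response protein with a part in the control of apoptosis, read 72.1 in L-Lpcat3 KO, which is under the floor, and 85.5 in Flox/Flox. Its ratio is therefore a bound for this floor, lower in L-Lpcat3 KO by at least 1.12-fold. None of these genes reached 1.5-fold.

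Dusp1, the dual-specificity phosphatase that removes phosphate from p38, JNK and ERK, had the highest ratio of the 9. Its signal was 4658 in L-Lpcat3 KO and 2746 in Flox/Flox, 1.70-fold higher in L-Lpcat3 KO (log2 ratio 0.76). Myc, the helix-loop-helix factor that drives growth and ribosome production, was next, with 538 in L-Lpcat3 KO and 327 in Flox/Flox, 1.65-fold higher (log2 ratio 0.72). Each of the 2 genes has 1 probe set here, so no second reading of either ratio exists on these arrays.

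How far a ratio of this size stands out depended on the signal, since dim genes scattered more. Of the 9 measured genes, 6 (Dusp1, Myc, Ier2, Egr1, Jun and Jund) had a mean signal above the 75th percentile of all signals (387), and 3 (Fos, Junb and Ier3) lay at or below it. Among the 7025 genes above that level, 0.925% were at least 1.5-fold higher in L-Lpcat3 KO and 0.968% at least 1.5-fold lower. Among the 5034 at or below it, 8.3% were higher and 6.18% lower. Dusp1 and Myc are thus 2 of the 65 brighter genes that were higher by this much, and Fos is 1 of the 311 dimmer genes that were lower by this much. The SD of log2 ratios across genes was 0.22 in the brighter band and 0.41 in the dimmer, a spread over genes and not over mice.

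Genes with a second measured probe set gave a gauge of how far 1 ratio can be read, added after the data were seen. Where both probe sets were above the 75th percentile, the 2 log2 ratios of a gene differed by a median of 0.15, and the 95th percentile of the difference was 0.52 over 2228 genes. Where the dimmer of them lay at or below that level, the median was 0.28 and the 95th percentile was 0.90 over 2267 genes. The log2 ratios of Dusp1 and Myc exceeded the 95th percentile of the brighter genes, and that of Fos was smaller than the 95th percentile of the dimmer ones. Myc lay near the edge of the brighter band, since its Flox/Flox signal (327) was below the 75th percentile (387). Its log2 ratio (0.72) did not exceed the 95th percentile of the dimmer genes. The differences include probe sets that read other isoforms, and they carry no information on variation among mice.

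**Figure D2:**
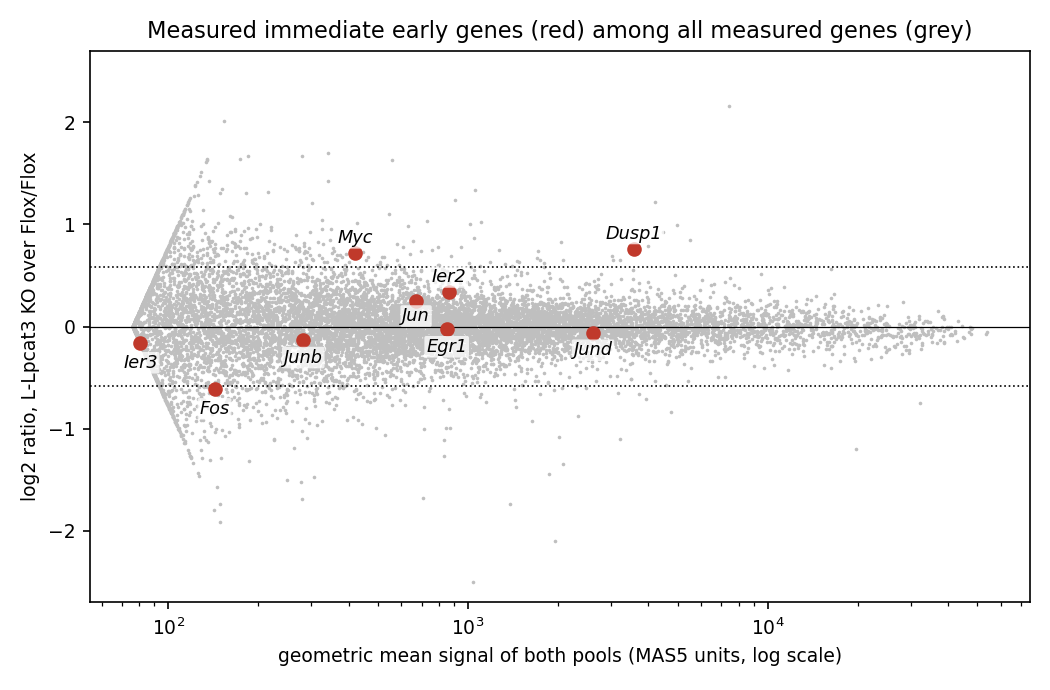
Log2 ratio of L-Lpcat3 KO to Flox/Flox signal (vertical axis) by geometric mean signal of the 2 pools in MAS5 units (horizontal log axis) for 12059 measured genes in grey and the 9 measured immediate early genes in red; dotted lines mark 1.5-fold. Dusp1 (0.76) and Myc (0.72) lie above the upper line, and Fos (-0.61) lies just below the lower line among dim genes.

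Counts for other gene lists, given next, also rest on the brightest probe set of each gene. Of all measured genes, 4.01% were at least 1.5-fold higher in L-Lpcat3 KO, 3.14% were lower by as much and 92.9% lay within 1.5-fold. These shares stand beside each count below, and a list lying wholly within 1.5-fold is near the background. The same comparison was made in 50 other genes with an early response to stimuli, of which 45 were measured. Among these, 4 were at least 1.5-fold higher in L-Lpcat3 KO, none was lower by as much and 41 lay within 1.5-fold. The median log2 ratio was 0.10, with 29 genes above 0 and 16 below. Ppp1r15a, which recruits phosphatase 1 to the initiation factor eIF2, had signals of 657 in L-Lpcat3 KO and 409 in Flox/Flox. Id1, a helix-loop-helix protein that blocks DNA binding by its partners, read 452 in L-Lpcat3 KO and 286 in Flox/Flox, 1.58-fold higher in L-Lpcat3 KO. Atf3, a stress-induced bZIP repressor, read 119.5 in L-Lpcat3 KO and 77.7 in Flox/Flox, the second value being at the edge of the floor. Gadd45b, a growth arrest gene, read 158 in L-Lpcat3 KO and 92.2 in Flox/Flox by its brightest probe set, but its other measured probe sets had log2 ratios of -0.38 to -0.33, in the opposite direction.

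The 2 brightest genes of this group had close signals in both pools. Cebpb, a bZIP factor of the acute phase, read 16056 in L-Lpcat3 KO and 17247 in Flox/Flox, and the antiproliferative gene Tob1 read 9833 in L-Lpcat3 KO and 9943 in Flox/Flox. The inducible orphan receptor Nr4a1, like Egr1, was nearly equal in both pools (139.8 in L-Lpcat3 KO and 133 in Flox/Flox). Zfp36, whose product speeds the decay of early transcripts, read 2719 in L-Lpcat3 KO and 2113 in Flox/Flox, with a log2 ratio of 0.36. Socs3, an inhibitor of cytokine signalling that interleukin-6 induces, had a log2 ratio of -0.50 by its brightest probe set (282 in L-Lpcat3 KO and 398 in Flox/Flox), but its other probe sets gave -0.15 to 0.17, so its direction was not settled. Nr4a1, Zfp36 and Socs3 were chosen after their values were seen.

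Of the other proteins that join AP-1 or related bZIP dimers, 11 of 14 were measured, with a median of 0.23. Of these, 2 were at least 1.5-fold higher in L-Lpcat3 KO and none was lower, beside 4.01% and 3.14% of all measured genes. The 2 were Atf3 and Jdp2, a repressor that pairs with Jun, which read 162 in L-Lpcat3 KO and 102 in Flox/Flox. The brightest were Atf2, a Jun partner that JNK and p38 activate (2611 in L-Lpcat3 KO, 2429 in Flox/Flox), and Mafg, a small Maf protein (1608 in L-Lpcat3 KO, 1141 in Flox/Flox, log2 ratio 0.49). Both directions were unsettled, since the other measured probe sets of Atf2 had log2 ratios of -0.79 to -0.09 and that of Mafg had -0.22. Fosl2, a Fos relative, read 159 in L-Lpcat3 KO and 232 in Flox/Flox (log2 ratio -0.54), but its other measured probe set gave 0.54, so its direction was not settled, and Fosl1 was below the floor in both pools. Fosl1 and Fosl2 were named here after their values were seen.

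Other dual-specificity phosphatases were measured for 8 of 11 genes. Of these, 2 were at least 1.5-fold higher in L-Lpcat3 KO, none was lower by as much, and the median was 0.21. Over all measured genes, 4.01% were higher and 3.14% lower by as much. Dusp10, which acts on p38 and JNK, read 148 in L-Lpcat3 KO and 93.6 in Flox/Flox. Dusp9, an ERK phosphatase, read 115 in L-Lpcat3 KO and 30.1 in Flox/Flox, at least 1.51-fold higher in L-Lpcat3 KO. The brightest of the list, Dusp3 (2126 in L-Lpcat3 KO, 1879 in Flox/Flox) and Dusp16 (1521 in L-Lpcat3 KO, 1252 in Flox/Flox), lay within 1.5-fold. So did Dusp6, the phosphatase that ERK signalling induces (910.1 in L-Lpcat3 KO, 800.3 in Flox/Flox). Dusp6 was named after its value was seen, and the other measured probe sets of Dusp3 had log2 ratios of -0.12 to 0.11.

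Of 26 kinases and factors upstream of immediate early genes, 20 were measured and all 20 lay within 1.5-fold by their brightest probe sets, close to the share of all genes, with a median of 0.03 and a range of -0.34 to 0.39. Egfr, the receptor for epidermal growth factor, read 15525 in L-Lpcat3 KO and 19662 in Flox/Flox by its brightest probe set, but log2 ratios by the other probe sets were -0.36 to 0.35, so its direction was not settled. Mapk14, which encodes p38, read 4404 in L-Lpcat3 KO and 4286 in Flox/Flox, with -0.29 to 0.51 by its other probe sets. The second probe set of Rps6ka3, a kinase that ERK activates, had a log2 ratio of -0.76, past 1.5-fold; Rps6ka3 was named after its value was seen. Transcript levels do not report the phosphorylation by which these proteins act.

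Of 20 genes known as Myc targets, all were measured and none differed by 1.5-fold by its brightest probe set, again near the share of all genes, with a median log2 ratio of 0.06. Ldha, a glycolytic enzyme, read 19350 in L-Lpcat3 KO and 19127 in Flox/Flox, and the nucleolar protein Npm1 read 8912 in L-Lpcat3 KO and 8606 in Flox/Flox. Of 16 targets of AP-1 or Egr1, 11 were measured, none differed by 1.5-fold by its brightest probe set and the median was -0.08. The brightest were Sqstm1, an autophagy receptor (5659 in L-Lpcat3 KO, 5983 in Flox/Flox), and Nab1, a corepressor of Egr1 (4552 in L-Lpcat3 KO, 4368 in Flox/Flox). Other probe sets of some targets did pass 1.5-fold, in both directions. Among Myc targets the log2 ratios of these other probe sets ran between -0.71 and 1.05 for Ccnd2, reached 1.10 for Nolc1 and 0.62 for Tfrc, and were as low as -0.66 for Ncl. Among AP-1 targets they were as low as -1.02 for Ccnd1. These 5 genes were named after their values were seen.

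The partners and rivals of Myc were measured for all 13 genes listed, of which 2 were at least 1.5-fold higher in L-Lpcat3 KO, 1 was lower and 10 lay within 1.5-fold (median 0.01). Max, the obligate partner of Myc, was at the floor in Flox/Flox (157 in L-Lpcat3 KO, 13.3 in Flox/Flox) and thus at least 2.05-fold higher in L-Lpcat3 KO. Mycn read 150.4 in L-Lpcat3 KO and 74.8 in Flox/Flox, also a bound of at least 1.97-fold, while another probe set of it had a log2 ratio of -0.58. Mxd3, a repressor that competes for Max, was 1.54-fold lower in L-Lpcat3 KO (132 in L-Lpcat3 KO, 203 in Flox/Flox). These are all dim probe sets. The brightest of the list, the carbohydrate-sensing factor Mlxipl (5918 in L-Lpcat3 KO, 6543 in Flox/Flox) and the Myc antagonist Mxi1 (1341 in L-Lpcat3 KO, 1109 in Flox/Flox), lay within 1.5-fold. A second probe set of Mxi1 had a log2 ratio of -0.19.

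**Figure D3:**
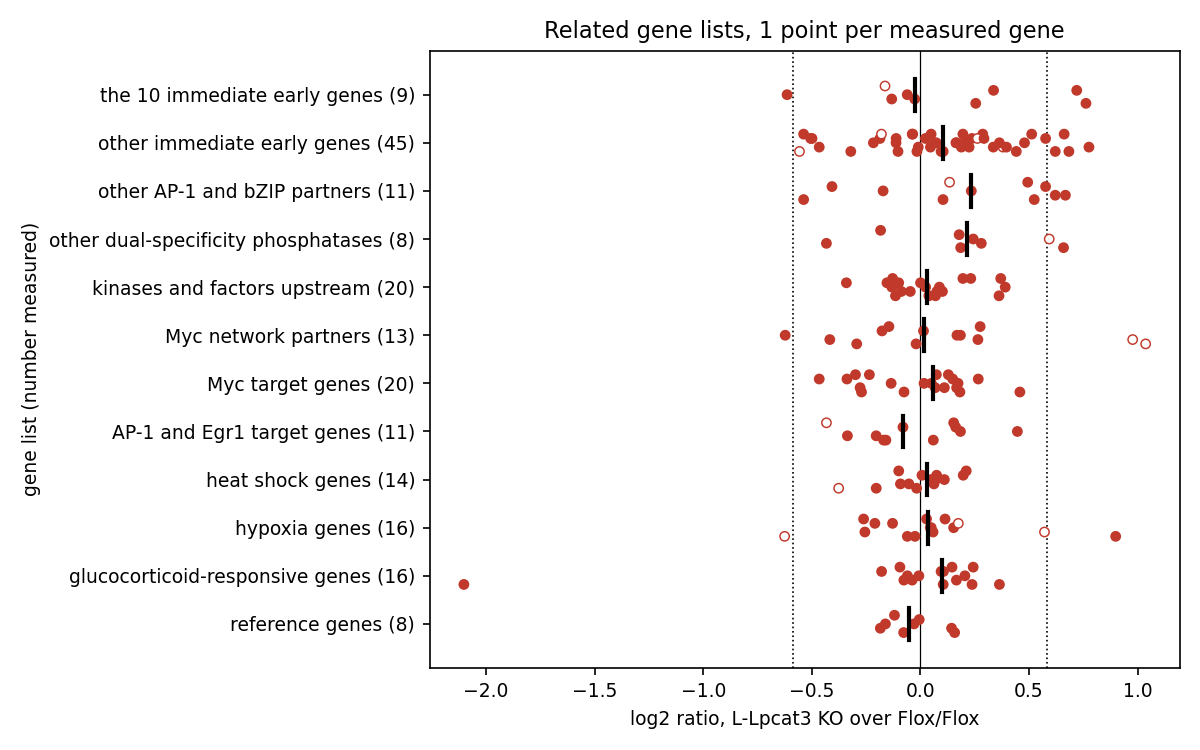
Log2 ratio of L-Lpcat3 KO to Flox/Flox signal for each measured gene of the 10 immediate early genes and of related lists (number measured in brackets); open circles are genes with 1 pool at the floor, black bars are list medians and dotted lines mark 1.5-fold. The medians run between -0.08 (AP-1 and Egr1 targets) and 0.23 (AP-1 and bZIP partners), and all measured Myc targets, upstream kinases and factors and heat shock genes lie between the dotted lines by their brightest probe sets, as do 92.9% of all measured genes.

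Because these genes can respond within minutes to the handling of a tissue, genes that report other aspects of handling were set beside them. Per the methods, liver was frozen in liquid nitrogen; how the mice were killed, the time until freezing and the order of collection are not given in the sources used here. Of 15 heat shock genes, 14 were measured, all within 1.5-fold by their brightest probe sets. Their median was 0.03, and their signals summed to 78794 in L-Lpcat3 KO and 77752 in Flox/Flox. Hspa8, the constitutive chaperone, read 17247 in L-Lpcat3 KO and 17160 in Flox/Flox, with log2 ratios of -0.24 to 0.45 by its other probe sets. The mitochondrial chaperone Hspd1 read 15410 in L-Lpcat3 KO and 14759 in Flox/Flox. The strongly inducible Hspa1a was at the floor in L-Lpcat3 KO and at least 1.30-fold lower there, with signals of 48.0 in L-Lpcat3 KO and 99.1 in Flox/Flox. Hspa1b of the same list was far brighter and nearly equal, with 1598 in L-Lpcat3 KO and 1658 in Flox/Flox (log2 ratio -0.05). The other probe sets of Hspa1b had log2 ratios of -0.34 to -0.18. A second probe set of Hspb1 had a log2 ratio of 0.65, past 1.5-fold. Hspa1a, Hspa1b and Hspb1 were named after their values were seen.

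Of 16 hypoxia genes, all measured, 1 was at least 1.5-fold higher in L-Lpcat3 KO and 1 lower, with a median of 0.04. Ndrg1 was 1.86-fold higher in L-Lpcat3 KO (364 in L-Lpcat3 KO, 195 in Flox/Flox) by its brightest probe set, and Adm, which encodes adrenomedullin, was lower by at least 1.54-fold (74.0 in L-Lpcat3 KO, 118 in Flox/Flox). The other probe sets of Ndrg1 had log2 ratios of 0.37 and 0.49, both under 1.5-fold, and a second probe set of Adm had 0.27, in the opposite direction. The brightest, Bnip3 (21660 in L-Lpcat3 KO, 19482 in Flox/Flox) and Higd1a (6854 in L-Lpcat3 KO, 7492 in Flox/Flox), lay within 1.5-fold. Second probe sets of Egln3 and Vegfa had log2 ratios of 1.40 and 0.74, both past 1.5-fold. Their brightest probe sets had 0.06 and -0.06. Egln3 and Vegfa were named after their values were seen.

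Among glucocorticoid-responsive genes, which report stress hormones, 15 of the 16 measured lay within 1.5-fold and the median was 0.10. The exception was Lcn2, an acute phase protein that interleukin-6 also induces, with 938 in L-Lpcat3 KO and 4028 in Flox/Flox (log2 ratio -2.10). The brightest 2 were Errfi1, an inhibitor of the EGF receptor (36602 in L-Lpcat3 KO, 37584 in Flox/Flox), and Mt1, a metallothionein (32352 in L-Lpcat3 KO, 34106 in Flox/Flox), of which a second probe set had a log2 ratio of 0.39. A second probe set of Cdkn1a, named after its value was seen, had a log2 ratio of 0.94, past 1.5-fold. Among clock genes, which follow the hour of collection, 13 of the 15 measured lay within 1.5-fold. The exceptions were Cry1, a clock repressor that was 1.67-fold higher in L-Lpcat3 KO (539 in L-Lpcat3 KO, 323 in Flox/Flox), and Nr1d1, another repressor, which was at the floor in L-Lpcat3 KO (48.6 in L-Lpcat3 KO, 207 in Flox/Flox). Nr1d2 and Tef, the brightest clock genes, had log2 ratios of -0.05 and -0.02, and the other probe sets of Tef had -0.38 to 0.20.

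RNA integrity was alike in both pools by the control probe sets that read the 3′ and 5′ ends of a transcript. The ratio of 3′ to 5′ signal for Gapdh was 0.851 in L-Lpcat3 KO and 0.866 in Flox/Flox. For Actb it was 2.32 in L-Lpcat3 KO and 2.34 in Flox/Flox. For 18S rRNA it was 1.57 in L-Lpcat3 KO and 1.55 in Flox/Flox, and for Pcx 43.9 in L-Lpcat3 KO and 44.1 in Flox/Flox. The Tfrc control differed more, with 5.02 in L-Lpcat3 KO and 5.90 in Flox/Flox, but all its signals were below the floor. Of 12 reference genes, 8 were measured and all lay within 1.5-fold by their brightest probe sets, with a median of -0.05. The other probe sets of Ywhaz, named after its value was seen, had log2 ratios of -0.81 to 0.35. The part of handling and of collection time in the ratios of Dusp1, Myc and Fos was not tested.

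Markers of liver cell types were read because immediate early genes are transcribed in all of them. Hepatocyte markers were measured for 11 of 12 genes, all within 1.5-fold, and summed to 364677 in L-Lpcat3 KO and 370676 in Flox/Flox. All 11 exceeded the floor in both pools. Kupffer cell and macrophage markers were measured for 14 of 14 genes, all within 1.5-fold but all with a ratio below 0, with a median of -0.32 and sums of 14368 in L-Lpcat3 KO and 17020 in Flox/Flox. Endothelial markers (11 of 11 measured, all within 1.5-fold, median 0.21) summed to 10019 in L-Lpcat3 KO and 8822 in Flox/Flox. They did not share a direction, with 7 ratios above 0 and 4 below. Of 9 measured stellate cell markers, 8 lay within 1.5-fold, with a median of 0.05, and Col3a1 was lower in L-Lpcat3 KO (1151 in L-Lpcat3 KO, 1758 in Flox/Flox). Of 3 measured bile duct markers, 1 was higher, 1 lower and 1 within 1.5-fold. Neutrophil markers were measured for 6 of 11 genes, none above the floor in both pools, and lymphocyte markers for 3 of 11. Of the red blood cell markers 1 was measured, Alas2 (2772 in L-Lpcat3 KO, 2362 in Flox/Flox), while Hba-a1, named after its value was seen, was below the floor in both pools. The part of cell composition in the ratios of the immediate early genes was not tested.

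The ratios were recomputed with other scaling, floors and gene summaries. Dusp1 was at least 1.5-fold higher in L-Lpcat3 KO in all 10 alternatives, with log2 ratios of 0.75 to 0.77. Myc was so in 9 of 10, and dropped to 0.48 where the floor was raised to the 75th percentile, which lies above its Flox/Flox signal. Fos was at least 1.5-fold lower in 8 of the 9 alternatives that measured it, and had a log2 ratio of -0.45 with a pseudocount of 50 in place of the floor. Fosb was counted as higher in L-Lpcat3 KO, with a log2 ratio of 0.79, only in the 2 alternatives with a low floor or none. No gene changed the sign of its ratio in any alternative. Many of the alternatives could not change these values. Dusp1, Myc and Fos have 1 probe set each, so the gene summaries returned the same ratios. Both Dusp1 signals also lay above every floor tried, so no change of floor could move its ratio.

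**Figure D4:**
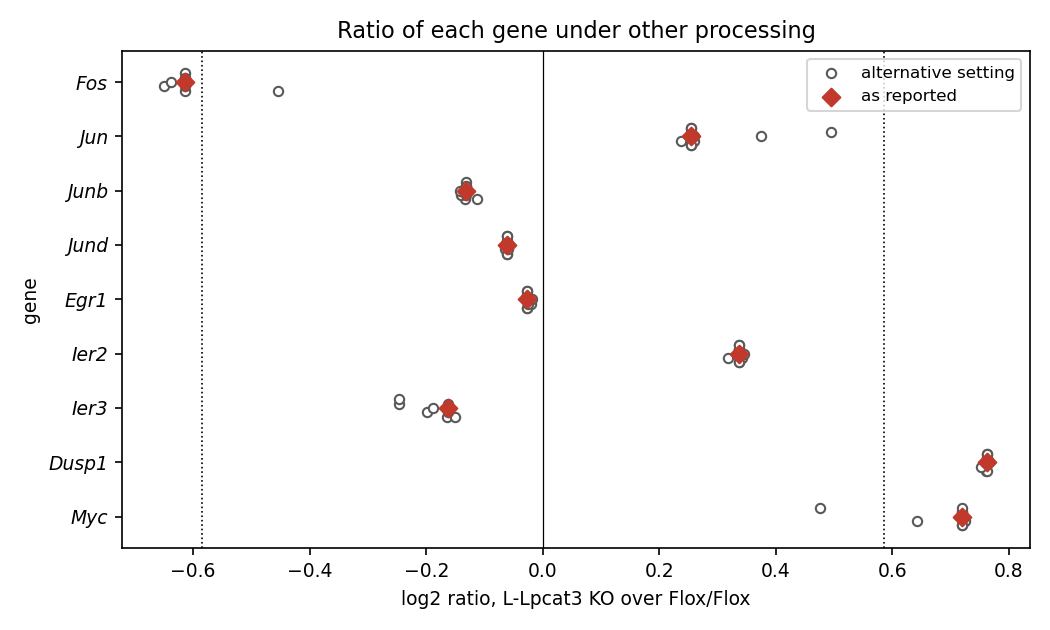
Log2 ratio of L-Lpcat3 KO to Flox/Flox signal of each measured immediate early gene as reported (red diamonds) and under alternative settings (open circles); dotted lines mark 1.5-fold. The points of Dusp1 stay between 0.75 and 0.77, 1 point of Fos lies inside the lower dotted line (-0.45) and 1 point of Myc inside the upper (0.48).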

How the data were processed

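Total liver RNA of 5 mice per genotype was extracted with Trizol, pooled and hybridized to 1 array per pool. For each array the authors deposited a table of intensity values, 1 for each probe set, named as MAS5 signals in the submitters' processing notes (version not given in the sources used here). Detection calls and probe-level data were not used here. Analysis was done by the authors in GeneSpring GX, and no test is named. With the top and bottom 2% of signals trimmed, either array averaged 500.0, so both were on 1 scale when deposited, and no further scaling was applied. MAS5 subtracts background probe by probe, which leaves dim ratios noisy.

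After removal of 64 controls from the 45101 probe sets, the platform annotation, updated by gene ID to RefSeq for GRCm38.p6, gave 1 gene symbol to 34945; probe sets listing several genes were left out. The comparison was the log2 signal in L-Lpcat3 KO less that in Flox/Flox, with the floor and the brightest probe set of each gene as described above. Where 1 pool lay at the floor, the ratio is written as "at least N-fold" and holds for that floor. The number of arrays limits the precision, and neither a standard error nor a p-value exists.

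The named genes are the 10 members with every probe set, Lpcat3 and, of each of the other 20 lists, up to 4 genes at least 1.5-fold apart and the 2 brightest, as far as they are told here; genes outside this rule are said to have been named after their values were seen. The members and the 21 lists were chosen with earlier results of these data known. Promoter windows came from RefSeq. Scripts were tested on simulated data. Computation used Python 3.11.15 (pandas 2.3.3, numpy 2.4.6, statsmodels 0.14.6, matplotlib 3.10.9). Alternatives to the scaling, the floor and the gene summary were run.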

Additional observations from a re-analysis of the deposited data

How the results depend on the processing

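Of the 10 alternatives, median centring, quantile normalization, loess and the 3 gene summaries left the members at least 1.5-fold apart as reported. The gene summaries could not do otherwise for Dusp1, Myc and Fos, which have 1 probe set each. With a floor at the 25th percentile, or with no floor and no filter, Fosb entered, and the median log2 ratio of the members was 0.11 in either case, against -0.03 as reported. With a floor at the 75th percentile, 6 genes were measured, 1 was at least 1.5-fold higher in L-Lpcat3 KO (Dusp1), 0 were lower, and the median was 0.30. With a pseudocount of 50, 0 were lower. The sign of the members' median thus depends on which dim genes are kept and is no basis for a shared direction. The log2 ratio of Jun was 0.37 as the mean of its probe sets and 0.49 by the second.

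Over all genes, 483 were at least 1.5-fold higher in L-Lpcat3 KO and 379 lower as reported. The counts were 1769 higher and 1383 lower with the 25th percentile floor, 2721 higher and 2356 lower with none, and 57 higher and 59 lower with the 75th percentile floor. No scaling moved the share of higher calls by over 10 percentage points (56.0% as reported, 51.1% with quantile normalization, 52.1% with loess). No paired analysis was possible because each genotype is 1 pool on 1 array. Depth has no meaning for these intensities; signal over the floor limits what can be read, which bears on Fos, Fosb and Ier3.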
